A study of Mus musculus and Homo sapiens with 12 samples.

Results

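Collagens are triple-helical proteins that give the extracellular matrix its strength, and tumour cells both secrete them and move along them. Fibrillar collagens (types I, III and V) build banded fibres, type IV forms the sheet-like network of basement membranes, and type VI makes fine beaded filaments that lie between fibres and cells. Each is assembled from 3 chains, and in most of these types the chains come from different genes, so that the supply of one chain can limit the others. The 10 genes described here encode chains of these 5 types: fibrillar COL1A1, COL1A2, COL3A1, COL5A1 and COL5A2, basement membrane COL4A1 and COL4A2, and type VI COL6A1, COL6A2 and COL6A3. The rule that picks them goes by name, although they were proposed with earlier results of these data known, and all 10 have a row in both tables, 10 of 54331 genes in the mouse table and 10 of 60233 in the human table.

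The libraries are single-end sequencing of poly(A) RNA from a pair of breast cancer lines, EMT6 of mouse and MDA-MB-231 of human origin. Both were sequenced as PFKFB4-KO cells, with 3 libraries, and as WT cells, with 3 libraries, giving 12 in all. PFKFB4 is an enzyme that makes and breaks down fructose 2,6-bisphosphate, an activator of glycolysis. All cells of both lines were kept in the same high-glucose medium with serum. The labels name the replicates biological but do not give the number of knockout clones, the edited part of the gene or the origin of each replicate, so each p-value reflects the spread among these libraries, which may be technical, and a property of a clone cannot be told apart from the loss of PFKFB4.

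Levels are the authors' TPM, in which the transcripts of a library are scaled to sum to 1000000, a unit corrected for transcript length, so that chains can be set beside each other within a table. Read depth per value is unknown. In EMT6, Pfkfb4 itself stood at 6.96, 6.87 and 8.24 TPM in knockout libraries, against 10.2, 10.5 and 10.4 TPM in wild-type libraries, so its transcript was lower but not lost (log2 fold change -0.45, limma adjusted p = 0.00487). The human PFKFB4 transcript was not analysed here. In EMT6, Krt8, a keratin of simple epithelia, averaged 535 TPM in knockout and 482 TPM in wild-type libraries (log2 fold change 0.15, limma adjusted p = 0.0302). Its partner keratin Krt18 averaged 15.5 TPM in knockout and 36.3 TPM in wild-type libraries (-1.17, limma adjusted p = 0.000368), and Krt19 0.0177 TPM in knockout and 1.95 TPM in wild-type libraries, having passed the filter below only through wild type. The epithelial adhesion genes Epcam and Cdh1 were under 1 TPM in all 6 libraries. Of 8 fibroblast markers, 4 were under 1 TPM in all 6 EMT6 libraries and 2 of these, Dpt and Lum, were at 0. Their summed level was 149 to 156 TPM in knockout libraries and 64.8 to 67.1 TPM in wild-type libraries, of which Pdpn, a membrane glycoprotein, made up 147 TPM in knockout and 59.4 TPM in wild-type libraries on average. The fibroblast receptor genes Pdgfra and Pdgfrb moved the other way, with 2.18 and 0.927 TPM in knockout libraries and 4.83 and 1.24 TPM in wild-type libraries on average (limma adjusted p = 0.00112 and 0.0228). The 7 leukocyte markers summed to 58.0 to 63.5 TPM in knockout libraries and 24.7 to 28.8 TPM in wild-type libraries, nearly all of it Cd68 and Coro1a, while Ptprc, the pan-leukocyte CD45 gene, was at most 0.00265 TPM on average. The 5 endothelial markers summed to at most 0.198 TPM in knockout and 0.318 TPM in wild-type libraries. The part of these marker differences in the collagen results was not tested, and in bulk RNA fewer cells of a type and less RNA per cell cannot be told apart.

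The promoters of 4 mouse members are shown, those whose whole RefSeq window is free of annotated exons, to set beside the levels of their genes. Each sequence is the 250 bases directly before the RefSeq start, on the gene's strand, from build GRCm38.p6. The letters were searched for GGGCGG, the box bound by SP1-type factors, CCAAT, the box bound by NF-Y, and TATAAA, on both strands. Capitals mark each match, which may read as the reverse complement.
Col3a1, chr1:45311288-45311537, plus strand: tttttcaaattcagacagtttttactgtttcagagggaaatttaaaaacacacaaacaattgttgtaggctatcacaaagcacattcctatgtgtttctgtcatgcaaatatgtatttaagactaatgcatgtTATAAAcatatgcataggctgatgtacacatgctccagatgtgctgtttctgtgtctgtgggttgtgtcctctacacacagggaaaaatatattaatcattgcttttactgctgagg
Col6a3, chr1:90843972-90844221, minus strand: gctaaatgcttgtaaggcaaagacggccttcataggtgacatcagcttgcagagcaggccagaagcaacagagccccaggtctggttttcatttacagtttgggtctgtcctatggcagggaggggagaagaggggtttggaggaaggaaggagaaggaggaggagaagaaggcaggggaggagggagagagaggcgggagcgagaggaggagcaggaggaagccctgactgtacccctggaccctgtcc
Col6a2, chr10:76623631-76623880, minus strand: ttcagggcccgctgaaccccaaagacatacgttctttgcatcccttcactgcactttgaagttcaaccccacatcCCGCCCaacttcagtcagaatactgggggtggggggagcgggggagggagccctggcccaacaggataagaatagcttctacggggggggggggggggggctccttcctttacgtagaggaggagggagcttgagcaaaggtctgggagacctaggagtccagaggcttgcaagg
Col5a1, chr2:27886175-27886424, plus strand: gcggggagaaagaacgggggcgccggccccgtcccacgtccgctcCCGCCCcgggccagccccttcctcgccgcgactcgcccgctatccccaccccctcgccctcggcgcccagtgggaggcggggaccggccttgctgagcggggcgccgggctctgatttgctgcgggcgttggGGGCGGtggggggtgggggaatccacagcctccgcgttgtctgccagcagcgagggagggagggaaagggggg
The 4 windows differ in composition. That of Col3a1 held 35.2% G and C and 1 TATAAA, that of Col6a3 57.2% and no match, that of Col6a2 59.2% and 1 GGGCGG, and that of Col5a1 76.4% and 2 GGGCGG. Over all 32851 mouse promoter windows of this length, 32.7% held GGGCGG, 33.9% CCAAT and 12.4% TATAAA. A match is a description of letters and not a bound site. RefSeq windows were found for 8 of the 10 members, and the other windows are not shown because an annotated exon lies in them or they had no entry.

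In EMT6, transcripts of Col1a1, Col1a2, Col3a1, Col5a1 and the type VI members were lower in the knockout. Col5a2 and the type IV members Col4a1 and Col4a2 were near 0 in both genotypes. The summed TPM of the 10 genes was 237.2, 248.7 and 242.7 in knockout libraries, against 617, 617 and 643 in wild-type libraries. Type I chains made up most of both sums. Differences between genotypes were tested with limma on log2(TPM + 1), for genes that reached 0.5 TPM in 3 or more of a line's 6 libraries, with Benjamini-Hochberg adjustment over all genes tested and calls at an adjusted p under 0.05. Fold changes on this scale understate the change of low genes. Of the 10 members, 7 passed the filter in EMT6 and all 7 were called lower, against a background of 42.3% of 13499 tested genes called lower. The groups of all 7 were also apart with the knockout lower, as were those of 48.3% of tested genes (66.2% in either direction). Of these 7, Col3a1 and Col6a3 passed only through the wild-type libraries, so that they had to be lower to be tested; the other 5 were present in all 6 libraries. The median log2 fold change of all tested genes was -0.21, and it was -0.01 under median-ratio scaling of the libraries.

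**Figure D1:**
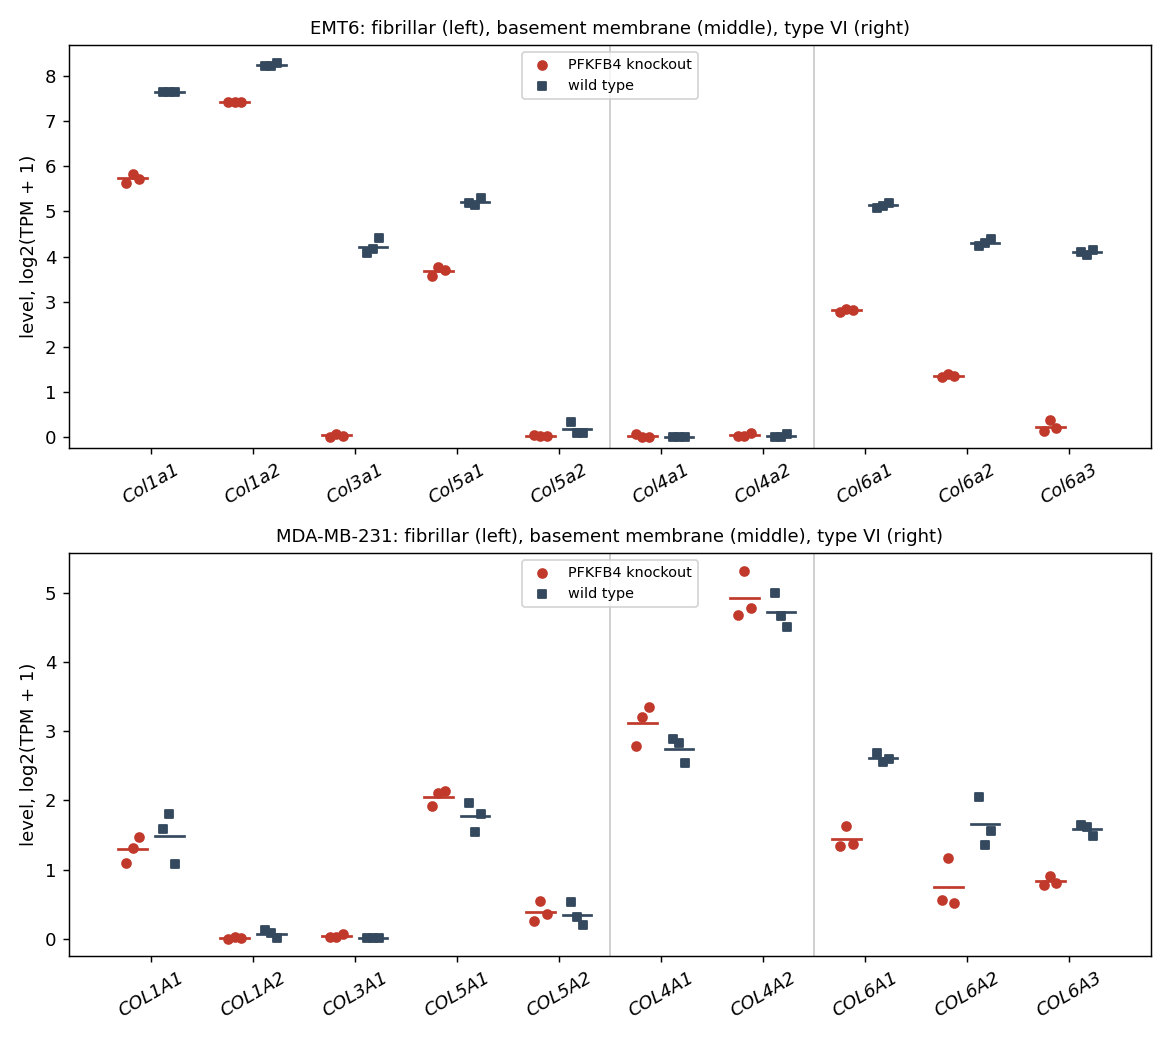
Level of each collagen gene, log2(TPM + 1), in the 3 knockout (circles, left of each pair) and 3 wild-type (squares, right) libraries of EMT6 and MDA-MB-231; horizontal lines are group means. In EMT6 the circles lie below the squares for Col1a1, Col1a2, Col3a1, Col5a1 and the 3 type VI genes, and in MDA-MB-231 the groups are apart in this way only for the type VI genes among members above 0.5 TPM in 3 libraries.

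Type I collagen, the main fibre-forming collagen, was the most abundant in EMT6 and its 2 chains fell by different amounts. Col1a1 (ENSMUSG00000001506, chromosome 11, 94936224 to 94953042 on GRCm38) encodes the alpha 1 chain. It stood at 48.8, 56.3 and 52.0 TPM in knockout libraries, against 198, 201 and 201 TPM in wild-type libraries. The groups were far apart, with a 3.82-fold lower mean in the knockout and a log2 difference of -1.92 (SE 0.06, adjusted p = 2.05e-05 by limma). Col1a2 (ENSMUSG00000029661, chromosome 6, 4504814 to 4541544) encodes the alpha 2 chain. It had 170.0, 172 and 171 TPM in knockout libraries, against 301, 297 and 311 TPM in wild-type libraries. This was a 1.77-fold lower mean, with no overlap and a log2 difference of -0.82 (SE 0.03, adjusted p = 6.04e-05 by limma), the smallest of the 7. With the trend of fold change on exon length removed, Col1a2 was at -0.37 (limma adjusted p = 0.0039) and Col1a1 at -1.58, both still lower; the annotated exons of Col1a2 add up to 12426 nt, the longest of the members, and those of Col1a1 to 6563 nt.

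Type III collagen, a homotrimer that forms fibres together with type I, all but disappeared from the EMT6 transcriptome. Col3a1 (ENSMUSG00000026043, chromosome 1, 45311538 to 45349706) stood at 0.00336, 0.0504 and 0.0114 TPM in knockout libraries, against 15.8, 17.0 and 20.2 TPM in wild-type libraries. Its log2 fold change was -4.19 (SE 0.10, adjusted p = 1.26e-05 by limma), the largest of the 7 on this scale, and no ratio of means is given because the knockout values are near 0. Its promoter, shown above, is the poorest in G and C of the 4.

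Type V collagen starts and limits the width of type I fibres, and its usual form joins alpha 1 with alpha 2 chains. Col5a1 (ENSMUSG00000026837, chromosome 2, 27886425 to 28039514), the alpha 1 chain gene, had 10.9, 12.7 and 11.99 TPM in knockout libraries, against 35.4, 34.3 and 38.2 TPM in wild-type libraries. The mean was 3.03-fold lower, with a log2 difference of -1.52 (SE 0.07, adjusted p = 9.25e-05 by limma). A pair of annotated genes lies antisense to it, and the strand setting of the counting is not given in the sources used here. Col5a2 (ENSMUSG00000026042, chromosome 1, 45374321 to 45503282), the alpha 2 chain gene, was nearly silent, at 0.0280, 0.00528 and 0.0190 TPM in knockout libraries and 0.253, 0.0626 and 0.0548 TPM in wild-type libraries. It was under the filter in both genotypes and was tested only when no filter was applied. Col5a2 lies 24614 bases from Col3a1, so that in wild-type EMT6 these neighbouring fibrillar genes stood at very different levels. Col5a3, the third chain gene of type V, was at 2.78 ± 0.256 TPM in knockout and 3.47 ± 0.279 TPM in wild-type libraries (SD, n = 3 each), and its difference was not called (limma adjusted p = 0.0511).

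The main basement membrane chain genes, Col4a1 and Col4a2, were near 0 in EMT6. Col4a1 (ENSMUSG00000031502, chromosome 8, 11198423 to 11312826) was listed at 0.0411, 0 and 0 TPM in knockout libraries and at 0 in each wild-type library. Col4a2 (ENSMUSG00000031503, chromosome 8, 11312805 to 11449287) was at 0.0115, 0.0109 and 0.0607 TPM in knockout libraries and 0.00258, 0.00306 and 0.0399 TPM in wild-type libraries. These genes are transcribed away from each other from starts 21 bases apart, and their annotated 5′ ends overlap. Col4a5, another type IV chain gene, was present at 4.55 ± 0.406 TPM in knockout and 4.65 ± 0.457 TPM in wild-type libraries (SD, n = 3 each; limma adjusted p = 0.841).

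All 3 type VI chains fell in EMT6, by graded amounts. A type VI monomer joins the alpha 1, alpha 2 and alpha 3 chains. Col6a1 (ENSMUSG00000001119, chromosome 10, 76708792 to 76726168) stood at 5.78, 6.15 and 6.02 TPM in knockout libraries, against 32.9, 33.9 and 35.4 TPM in wild-type libraries. Its mean was 5.70-fold lower, with a log2 difference of -2.33 (SE 0.05, adjusted p = 1.10e-05 by limma). Col6a2 (ENSMUSG00000020241, chromosome 10, 76595762 to 76623630), which lies 85161 bases from Col6a1, had 1.52, 1.62 and 1.55 TPM in knockout libraries, against 17.8, 18.8 and 19.8 TPM in wild-type libraries. The mean was 12.05-fold lower (log2 fold change -2.95, SE 0.07, adjusted p = 1.06e-05 by limma). Col6a3 (ENSMUSG00000048126, chromosome 1, 90765923 to 90843971) had 0.0850, 0.285 and 0.148 TPM in knockout libraries, against 16.1, 15.4 and 16.6 TPM in wild-type libraries, a log2 difference of -3.86 (SE 0.08, adjusted p = 1.06e-05 by limma). The knockout cells therefore held a little alpha 1 chain transcript, less alpha 2 and almost no alpha 3. The order of the falls was also that of annotated exon length, 4380 nt for Col6a1, 8326 nt for Col6a2 and 11963 nt for Col6a3. With the trend of fold change on exon length removed, Col6a1, Col6a2 and Col6a3 were at -2.09, -2.57 and -3.41, still in that order. The summed type VI level was 7.39, 8.05 and 7.72 TPM in knockout libraries, against 66.8, 68.2 and 71.8 TPM in wild-type libraries, an 8.93-fold lower mean.

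The order of the EMT6 levels differed between genotypes. In the knockout it was Col1a2, Col1a1, Col5a1, Col6a1, Col6a2, Col6a3 and Col3a1, with no overlap between neighbours in that order. In wild-type libraries it was Col1a2, Col1a1, Col5a1, Col6a1, Col6a2, Col3a1 and Col6a3. There the ranges of Col5a1 and Col6a1 overlapped, as did those of Col6a2 and Col3a1 and those of Col3a1 and Col6a3. Col3a1 thus stood level with Col6a2 and Col6a3 in wild type and below all 3 type VI genes in the knockout.

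In MDA-MB-231, the 3 type VI genes fell in the knockout, and neither the fibrillar nor the basement membrane genes were called in either direction. The human genes are identified in the table by Ensembl numbers, and the 10 members were matched by these: ENSG00000108821, ENSG00000164692, ENSG00000168542, ENSG00000130635 and ENSG00000204262 for the fibrillar genes in the order given above, ENSG00000187498 and ENSG00000134871 for COL4A1 and COL4A2, and ENSG00000142156, ENSG00000142173 and ENSG00000163359 for the type VI genes. Of the 10, 7 passed the filter, 3 were called lower and 0 higher, against a background of 12.1% of 15299 tested genes called lower and 7.97% called higher (20% in either direction). The groups were apart with the knockout lower for the 3 type VI genes and with the knockout higher for none of the 7, against 22.9% and 17.2% of tested genes. No member was higher at an unadjusted p under 0.05 either, and none was called higher by limma under any alternative. Under median-ratio scaling, COL4A1 and COL5A1 were higher at unadjusted limma p-values of 0.0284 and 0.0373 (adjusted p = 0.0928 and 0.112). The summed TPM of the 10 genes was 37.5, 56.7 and 44.2 in knockout libraries, against 53.5, 43.7 and 39.1 in wild-type libraries, and the groups overlapped.

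COL6A1 was at 1.54, 2.099 and 1.59 TPM in knockout libraries, against 5.43, 4.90 and 5.05 TPM in wild-type libraries. The groups were apart, with a 2.94-fold lower mean and a log2 difference of -1.17 (SE 0.12, adjusted p = 0.0017 by limma). COL6A3 had 0.711, 0.869 and 0.755 TPM in knockout libraries, against 2.14, 2.06 and 1.81 TPM in wild-type libraries, a 2.57-fold lower mean (log2 fold change -0.76, SE 0.10, adjusted p = 0.00379 by limma). COL6A2 had 0.473, 1.25 and 0.425 TPM in knockout libraries, against 3.15, 1.56 and 1.95 TPM in wild-type libraries. Its groups did not overlap, which was so for 40.1% of all tested genes, but its libraries were more scattered, with a log2 difference of -0.91 (SE 0.25, adjusted p = 0.0467 by limma). This call was lost when knockout replicate 1 or 3 or any 1 of the wild-type replicates was left out (limma adjusted p = 0.0539 to 0.132), with no filter (0.13), with a pseudocount of 0.1 (0.0519) and with the replicate number as a block (0.1). The fold change stayed at -0.91 with no filter and with the block, was -1.59 with the pseudocount of 0.1, and lay between -1.06 and -0.71 in the leave-outs that lost the call. The summed type VI level was 2.72, 4.22 and 2.77 TPM in knockout libraries, against 10.7, 8.52 and 8.81 TPM in wild-type libraries, a 2.89-fold lower mean.

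The basement membrane genes, nearly absent from EMT6, were the most abundant members in MDA-MB-231. COL4A2 had 24.7, 39.0 and 26.7 TPM in knockout libraries, against 30.9, 24.4 and 21.7 TPM in wild-type libraries, with overlapping groups and a log2 fold change of 0.21 (95% interval -0.28 to 0.70; limma adjusted p = 0.51). COL4A1 had 5.93, 8.24 and 9.25 TPM in knockout libraries, against 6.40, 6.09 and 4.82 TPM in wild-type libraries, also overlapping (0.37, interval -0.06 to 0.80; limma adjusted p = 0.2). The COL4A2 interval leaves room for a modest change in either direction, while that of COL4A1 includes 0 but lies almost wholly above it.

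The fibrillar genes were low in MDA-MB-231 in both genotypes. COL5A1 led them, with 2.79, 3.30 and 3.39 TPM in knockout libraries and 2.88, 1.93 and 2.48 TPM in wild-type libraries (log2 fold change 0.29, 95% interval -0.05 to 0.62; limma adjusted p = 0.204). COL1A1 had 1.14, 1.48 and 1.77 TPM in knockout libraries and 2.01, 2.48 and 1.12 TPM in wild-type libraries (-0.20, interval -0.69 to 0.30; limma adjusted p = 0.543). Both sets of values overlapped between genotypes. COL5A2 was at 0.197 to 0.452 TPM in knockout libraries and 0.148 to 0.444 TPM in wild-type libraries. COL1A2 was at most 0.0132 TPM in knockout and 0.0914 TPM in wild-type libraries, and COL3A1 at most 0.0480 TPM in knockout and 0.0112 TPM in wild-type libraries, so that the alpha 2 chain of type I, the most abundant member in EMT6, was close to silent here. COL5A2, COL1A2 and COL3A1 did not pass the filter and were tested only when no filter was applied.

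**Figure D2:**
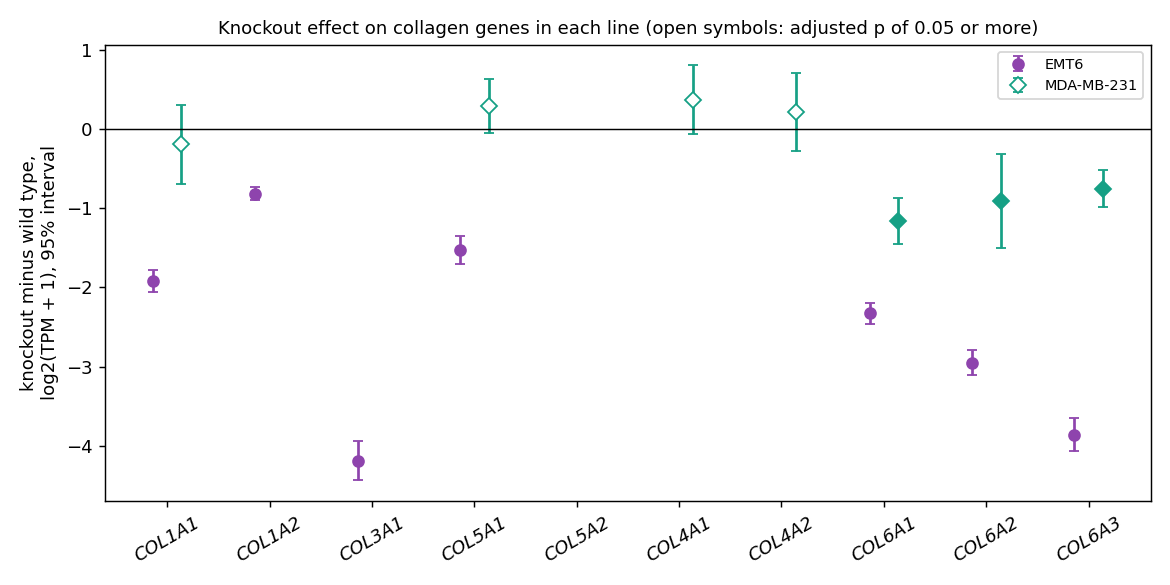
Log2 fold change, knockout minus wild type on log2(TPM + 1), with its 95% interval from limma for each member tested in EMT6 (circles) or MDA-MB-231 (diamonds); filled symbols have an adjusted p under 0.05. All 7 EMT6 values lie between -4.19 and -0.82, whereas in MDA-MB-231 only COL6A1, COL6A2 and COL6A3 are filled and lie below 0.

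The effect of the knockout on the 5 members tested in both lines was compared between lines. A single fit over both species could not be made because the human identifiers are not paired with names, so the difference of the 2 fold changes was taken from the separate fits, with a 95% interval not adjusted for the 5 comparisons and no p. The EMT6 minus MDA-MB-231 difference in log2 fold change was -1.72 for COL1A1 (interval -2.22 to -1.22) and -1.81 for COL5A1 (-2.16 to -1.46). For the type VI genes, lower in both lines, it was -1.16 for COL6A1 (-1.46 to -0.86), -2.04 for COL6A2 (-2.64 to -1.44) and -3.11 for COL6A3 (-3.39 to -2.83). Each interval excluded 0. Col6a3 passed the EMT6 filter only through wild type, so it had to be lower there to enter this comparison. Levels differ between the lines and a pseudocount of 1 shrinks the change of low genes, so the type VI differences were also taken with a pseudocount of 0.1, where they were -0.97, -1.92 and -4.69, with intervals that again excluded 0. The tables of the lines were normalized separately, and each line rests on its own knockout cells.

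Of ratios of chains that assemble together, only alpha 2 to alpha 1 of type I and of type VI could be given in EMT6. Both were apart between genotypes, while the ratios given for MDA-MB-231 overlapped. Whether the lines differ in this was not tested. Among single tested genes, groups were apart for 66.2% in EMT6 and 40.1% in MDA-MB-231, and no such share was taken for ratios. The length trend was not removed from the ratios. The ratio of alpha 2 to alpha 1 transcript of type I was 3.48, 3.05 and 3.29 in EMT6 knockout libraries, against 1.52, 1.48 and 1.55 in wild-type libraries. The groups were well apart, so knockout cells held more alpha 2 per alpha 1 transcript although both fell. The ratio of alpha 2 to alpha 1 of type VI was 0.262, 0.263 and 0.257 in EMT6 knockout libraries, against 0.540, 0.554 and 0.559 in wild-type libraries. Here the alpha 2 share was lower in the knockout, again with no overlap.

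In MDA-MB-231 the type VI ratio of alpha 3 to alpha 1 was 0.463, 0.414 and 0.475 in knockout libraries, against 0.394, 0.420 and 0.358 in wild-type libraries, and that of alpha 2 to alpha 1 was 0.308, 0.597 and 0.267 in knockout libraries, against 0.581, 0.318 and 0.385 in wild-type libraries. Both overlapped between genotypes. The ratio of alpha 2 to alpha 1 of type IV was 4.16, 4.73 and 2.88 in knockout libraries, against 4.84, 4.002 and 4.505 in wild-type libraries, so alpha 2 transcript exceeded alpha 1 in each library. Ratios are described without a test; an exact permutation test of 3 libraries against 3 cannot go below p = 0.10. No ratio is given where a chain was under 0.1 TPM in a library.

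**Figure D3:**
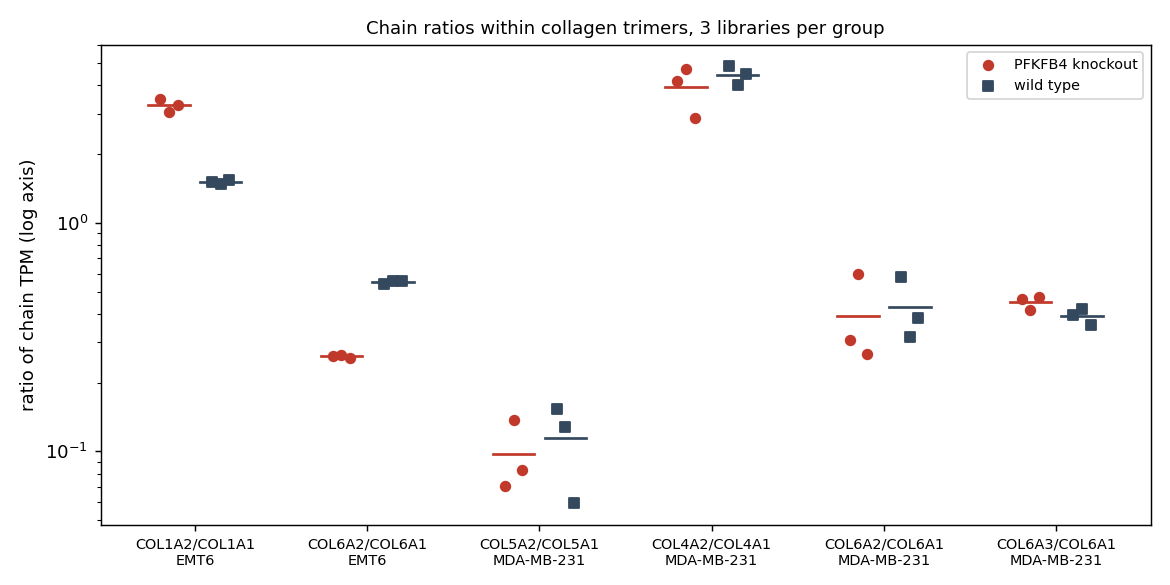
Ratio of chain TPM (log axis) in each library for pairs of chains that assemble together, knockout (circles) left of wild type (squares), with group means as lines. The EMT6 type I ratio is above 3 in the knockout and near 1.5 in wild type, the EMT6 type VI ratio is near 0.26 and 0.55, and the 4 MDA-MB-231 ratios overlap between genotypes.

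Genes that make, process, bind or neighbour collagen were examined in EMT6, where gene names are available. Of 34 other collagen chain genes, 11 were tested, with 5 lower, 1 higher and a median log2 fold change of -0.36, against -0.21 for all tested genes. The number lower is near the background of 42.3%, and with the length trend removed the median was -0.02, against -0.04 for all tested genes. Col12a1 and Col7a1, chains of a fibril-associated and of an anchoring collagen, fell to 13.1 ± 0.954 and 19.6 ± 1.23 TPM in knockout libraries, against 30.03 ± 0.850 and 43.2 ± 2.53 TPM in wild-type libraries (SD, n = 3 each). Col27a1, a fibrillar-type chain, fell by 1.81 on the log2 scale (limma adjusted p = 0.000179). Col20a1 was the 1 that rose, to 2.09 ± 0.125 TPM in knockout libraries, against 0.667 ± 0.170 TPM in wild-type libraries. Col16a1, the most abundant of these 34, was not called, at 86.9 ± 2.45 TPM in knockout and 98.3 ± 11.5 TPM in wild-type libraries (limma adjusted p = 0.152).

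Of 19 genes of collagen synthesis and folding, 18 were tested, with 14 lower and 0 higher and a median of -0.42. P4ha1, a prolyl hydroxylase subunit (-0.75), Serpinh1, the collagen chaperone HSP47 (-0.46), and Mia3, which serves procollagen export (-0.73), had the smallest adjusted p. In this list and in those of basement membrane partners, receptors and transcription factors below, 0 genes were higher also at an unadjusted p under 0.05. P4hb, the other subunit of the hydroxylase and a general disulfide isomerase, had 692 ± 26.4 TPM in knockout and 730.5 ± 45.8 TPM in wild-type libraries and was not called (limma adjusted p = 0.289). Of this list, 10 were lower and 2 higher under median-ratio scaling, and 12 lower and 2 higher once the length trend was removed.

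Of 14 genes of procollagen processing and cross-linking, 9 were tested, with 8 lower, 1 higher and a median of -0.65. Loxl2, a cross-linking oxidase (-2.05), Pxdn, the peroxidase that cross-links type IV collagen (-1.20), and Adamts14, a procollagen N-propeptidase (-0.84), fell. Pcolce2, an enhancer of C-propeptide removal, was at 0.16 (limma adjusted p = 0.0388) and is the 1 called higher; with no trend, with no filter, with the replicate block or with any 1 library left out, 0 of this list were called higher. Of 13 fibril-associated matrix genes, 6 were tested, with 5 lower, 1 higher and a median of -0.52. Vcan (-0.93), Thbs2 (-0.85) and Sparc (-0.58) fell. Dcn, a small proteoglycan that binds fibrils, is the 1 higher, with 2.52 TPM in knockout and 0.412 TPM in wild-type libraries; it passed the filter only through the knockout, so that it had to be higher to be tested. The number lower in this list was 3 with the length trend removed. Of 8 basement membrane partners, 4 were tested and 3 were lower (Sparc, Fbln1 and Hspg2), while Agrn was not called. The count was 2 with no trend, with no filter, with the replicate block and in 5 of the 6 fits that left out a library, and it was 2 lower and 1 higher under median-ratio scaling and also without the length trend. Hspg2 had the weakest call of the 3 (limma adjusted p = 0.0431).

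Of 11 collagen receptors, 6 were tested, with 5 lower (4 to 7 over the alternatives), 0 higher and a median of -0.79. The discoidin domain receptors Ddr1 (-0.79) and Ddr2 (-0.79) and the type VI-binding receptor Antxr1 (-0.83) fell, and Itgb1, the beta subunit of the collagen-binding integrins, was not called (-0.17, limma adjusted p = 0.0876). Of 15 transcription factors and TGF-beta pathway genes, all were tested, with 9 lower, 0 higher and a median of -0.63. Over the alternatives, 7 to 10 of this list were lower. There were 7 lower and 1 higher under median-ratio scaling, and 7 lower and 0 higher with the length trend removed. Tgfbr2, a TGF-beta receptor (-1.26), Nfya, the DNA-contacting NF-Y subunit (-0.81), and Smad4, the shared SMAD (-0.93), fell. Nfyc, another NF-Y subunit, was at 27.2 ± 1.40 TPM in knockout and 27.1 ± 1.13 TPM in wild-type libraries and was not called. A share lower near 42.3% would be no more than the background, which was 25.4% when libraries were scaled by median ratio and 26.6% after removal of the length trend.

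**Figure D4:**
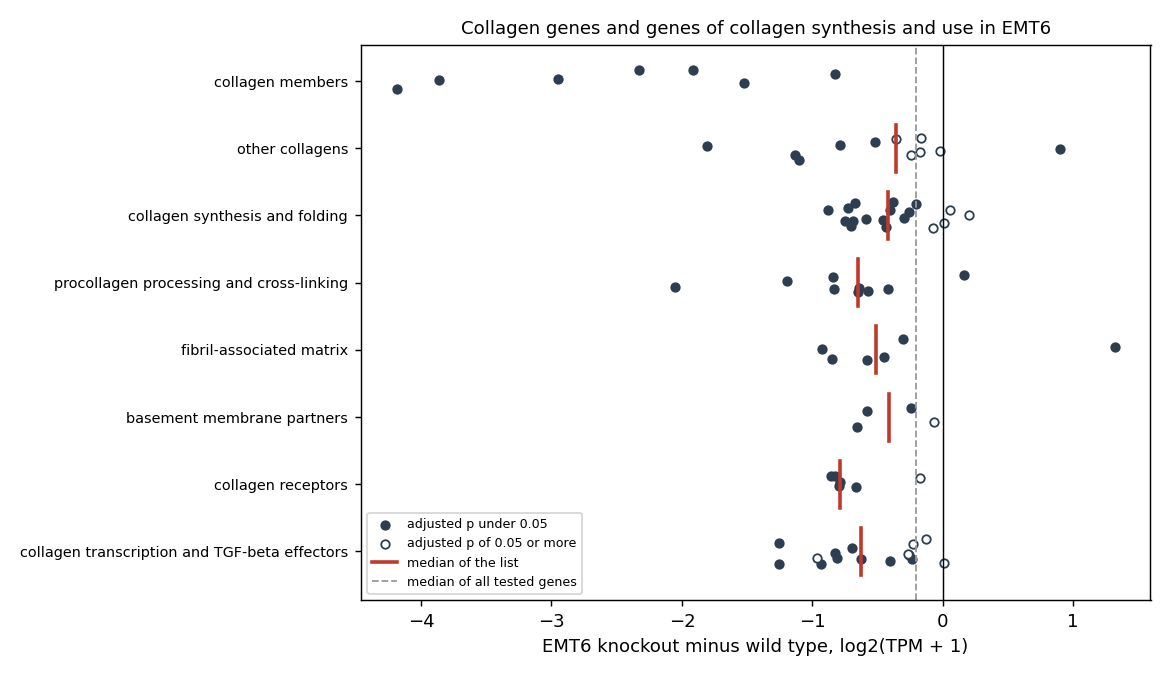
Log2 fold change in EMT6, knockout minus wild type on log2(TPM + 1), of each tested gene of the collagen set and of 7 related lists; filled points have an adjusted p under 0.05, red bars are list medians and the dashed line is the median of all tested genes, -0.21. The collagen genes reach from -4.19 to -0.82, and the list medians lie between -0.79 and -0.36.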

How the data were processed

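The submitters' processing notes list CASAVA 1.8.2, TopHat2 2.1.1, featureCounts, Subread 1.6.4 and the builds mm10 and GRCh38.p7; settings, annotation and strand are not stated. The authors deposited TPM, 1 table per line, and every library sums to 1000000. In the mouse table the smallest values above 0 fall with exon length, so they are per length; for the human table this was assumed. Columns with the codes A7 (EMT6) and G2 (MDA-MB-231) were taken as knockout by elimination, since no label explains the codes. No pair of libraries shared more than 0.00862% identical values above 0.

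GENCODE M21 (GRCm38) gave mouse names for 54097 of 54331 identifiers, positions and lengths, and RefSeq (GRCm38.p6) the promoters. Human identifiers other than the members' were not named, so human lists, the human length trend and the interaction fit were not run; the interval of the difference between lines was chosen in its place after seeing the data. limma 3.58.1 (R 4.3.3), tested on simulated data, was fitted per line with a mean-variance trend; Python 3.11.15 did the rest. The length trend was a lowess curve (span 0.3). All members are named, and of each list up to 3 called genes per direction with the smallest adjusted p whose higher group averaged 1 TPM or more; Col5a3, Col4a5, Col16a1, P4hb, Agrn, Itgb1, Nfyc and the neighbouring genes were chosen after their values were seen. Members and lists were chosen with earlier results of these data known. The alternatives were no trend, median-ratio scaling, no filter or one at 1 TPM, a pseudocount of 0.1, removal of the length trend, a replicate block and leaving out each library.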

Additional observations from a re-analysis of the deposited data

Results flagged for a closer look

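For 5 collagen genes the effect of the knockout differed between the lines, as judged by the 95% interval of the difference of the fold changes, EMT6 minus MDA-MB-231 on the log2 scale. The difference was -1.72 for COL1A1, -1.81 for COL5A1, -1.16 for COL6A1, -2.04 for COL6A2 and -3.11 for COL6A3. COL1A1 and COL5A1 were called lower in EMT6 and not called in MDA-MB-231, and the 3 type VI genes were called lower in both lines, further in EMT6. The intervals were not adjusted for the number of genes, and Col6a3 had to be lower in EMT6 to be tested there. No group had more than 3 libraries, so single libraries were not examined for standing apart.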

How the results depend on the processing

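In EMT6, all 7 tested members were called lower under each alternative, with 0 higher, also with no filter, where 10 were tested. In MDA-MB-231 the number called lower was 3, or 2 where COL6A2 lost its call, and 0 were higher throughout. COL6A1 and COL6A3 were called lower under each alternative. With the filter at 1 TPM, however, COL6A3 passed only through wild type, so under that alternative it had to be lower to be tested. The summed TPM of the 10 members in EMT6, knockout minus wild type, was -383, and -312 under median-ratio scaling; in MDA-MB-231 it was 0.708, and -4.59 to 5.03 when single libraries were left out. All 5 differences between lines kept intervals that exclude 0 with no trend, median-ratio scaling, a pseudocount of 0.1 and each library left out. The other alternatives were not run for this comparison. Over the context lists, 48 of 68 tested genes were lower and 3 higher, 39 and 7 under median-ratio scaling and 38 and 7 with the length trend removed; of all tested genes, 42.3% were lower and 14.5% higher, 25.4% and 26.6% under that scaling, and 26.6% and 23.2% without the length trend. With the replicate number as a block, 7 members were lower in EMT6 and 2 in MDA-MB-231, where COL6A2 had a limma adjusted p of 0.1. The labels do not say whether the numbers pair the libraries, and 3 libraries per group are too few to decide it. Deviations of same-numbered libraries correlated at 0.0647, -0.0175 and 0.0728 in EMT6 and 0.00168, 0.114 and -0.127 in MDA-MB-231. The best-matching wild-type library had the same number for knockout replicates 1 and 3 in EMT6 and replicate 2 in MDA-MB-231. For the others it had another number. Low levels, such as those of Col3a1 and Col6a3 in the EMT6 knockout, rest on an unknown number of reads, so no ratio of means is given. The log2 fold changes of these genes depend on the pseudocount. They were -4.19 and -3.86 with a pseudocount of 1, and -7.20 and -5.95 with 0.1. The share of lower among all called genes in EMT6 was 74.5%, and 48.9% under median-ratio scaling.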

Other observations

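The genes around the members in EMT6 were looked at after the collagen values were known, taking tested genes within 500 kb of each. Around Col6a3, none of the 6 tested neighbours was near its log2 fold change of -3.86: the lowest was Mlph at -0.66, Cops8 was at -0.35, and 2 of the 6 were called lower and 0 higher, a share below the 42.3% of all tested genes called lower. Around Col3a1, the protein-coding neighbour Wdr75 was at 0.24 (limma adjusted p = 0.00886), with 64.0 TPM in knockout and 54.0 TPM in wild-type libraries on average. The microRNA gene Gm47302, which lies within Col3a1 on the same strand, was listed at 0 in knockout libraries and at 21.5 TPM on average in wild-type libraries. It passed the filter only through wild type, so it had to be lower to be tested. Whether reads of Col3a1 transcripts were counted for it was not tested, so it is not a separate observation. Around Col1a1, 10 of 15 tested neighbours were lower, with Itga3, an integrin subunit, the lowest at -1.38. Around Col6a1, 7 of 11 were lower, the collagen gene Col6a2 and Col18a1 (-0.79) among them, while Mcm3ap was at 0.01 (limma adjusted p = 0.962). Around the silent pair Col4a1 and Col4a2, neighbouring genes were expressed, and of 9 tested 1 was lower and 2 were higher. Ing1, the lower gene, had 27.0 TPM in knockout and 35.03 TPM in wild-type libraries. The higher genes were Rab20 (0.62, limma adjusted p = 0.0031) and Naxd (0.41, limma adjusted p = 0.00179).

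In MDA-MB-231, COL3A1 was at 0.0120, 0.0219 and 0.0480 TPM in knockout libraries, against 0.0102, 0.00840 and 0.0112 TPM in wild-type libraries. These values near 0 did not overlap. Of tested genes, 17.2% were apart with the knockout higher. COL3A1 did not pass the filter, and with no filter its log2 fold change was 0.02 (limma adjusted p = 0.493).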
